A study of Mus musculus with 24 samples.

Results

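MYT1L, a neuronal protein with zinc fingers that contact DNA, is best known as a repressor of genes of other cell fates. The method here was CUT&RUN: an antibody tethers a nuclease to chromatin and the released DNA fragments are sequenced. Described here are the adult WT only sites, the MYT1L sites of adult wild-type (WT) cortex that shared no base with any site of the other 3 lists of the series. Members were chosen by overlap alone, so their absence from the other lists is the rule and not a finding. Of 32145 adult WT sites, 26232 were adult WT only (81.6%), out of 144257 sites in all 4 lists.

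The adult groups were mice of 3 months, WT or heterozygous for a germline Myt1l allele with a 7 bp frameshift deletion in exon 6 (HET). The labels give the strain as C57BL/6J, while the methods describe founders bred on C57BL/6N. The younger groups were WT mice at P0 and E18.5. The labels name prefrontal cortex for the adult and P0 mice and cortex for E18.5, and give the sex as unknown. Each group had 3 MYT1L and 3 control IgG libraries, 24 samples in all, where the titles of 4 adult libraries name Myt2l or Myt3l and were taken to mean MYT1L. The deposited lists were merged over the 3 MYT1L libraries of a group and carry no score, so depth was unknown and no value below has a replicate error. A p-value here compares 2 sets of sites and not 2 conditions, and intervals cover counting error only. The adult libraries all had run label 2 and the younger ones 1, and between adult and younger lists the effects of age and run cannot be told apart. The lists hold no transcript levels, so the labelled tissue was not checked against marker genes.

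Regulatory DNA is read by transcription factors through short words of sequence. MYT1L and its relatives recognise a core with the letters AAAGTT. In mature cortical neurons, FOS and JUN dimers bind AP-1 sites, EGR factors bind a site that contains GTGGGC, and MEF2 factors bind TAAAAATAG. All 3 families are known for their part in responses to neuronal activity. The AP-1 word searched here was TGANTCA, where N is any base, and its shares were not split by that base. The nuclear factor I half-site TTGGCA and the E-box CAGATG of NEUROD-type factors are also common in enhancers of cortical neurons.

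Sequences of 4 kinds are shown because the results below turn on their words. All lie in introns of protein-coding genes in build mm10 (GRCm38.p6, RefSeq sequence), are printed on the plus strand, and hold the most copies of a word, on either strand, among adult WT only sites of 100 to 250 bp in genes of the neuronal lists or with the most members. Sites with repeat bases were left out except for the TA-rich word. Capitals mark the word. The AP-1 examples lie at chr2:5615004-5615194 in Camk1d, a calcium-dependent kinase, with 3 copies, and at chr3:26065586-26065816 in Nlgn1, a postsynaptic adhesion protein, with 2 copies. As printed, the middle base of the word is G in the Camk1d copies and T in the Nlgn1 copies.
Camk1d AP-1: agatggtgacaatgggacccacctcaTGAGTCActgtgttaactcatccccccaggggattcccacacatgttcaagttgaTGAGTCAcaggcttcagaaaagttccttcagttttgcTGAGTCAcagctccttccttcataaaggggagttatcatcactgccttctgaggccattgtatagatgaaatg
Nlgn1 AP-1: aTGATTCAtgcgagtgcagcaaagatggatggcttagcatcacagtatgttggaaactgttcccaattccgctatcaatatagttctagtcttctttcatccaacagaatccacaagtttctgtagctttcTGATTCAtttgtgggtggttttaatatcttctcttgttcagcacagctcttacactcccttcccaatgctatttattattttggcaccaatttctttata
The EGR examples both lie in Mroh2a, at chr1:88259604-88259787 and chr1:88227553-88227710, inside a dense block described further on. Each holds the word or its reverse complement in 2 places.
Mroh2a EGR, first: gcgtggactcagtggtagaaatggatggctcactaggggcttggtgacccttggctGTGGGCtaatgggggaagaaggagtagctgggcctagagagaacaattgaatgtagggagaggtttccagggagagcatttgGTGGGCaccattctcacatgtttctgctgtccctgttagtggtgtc
Mroh2a EGR, second: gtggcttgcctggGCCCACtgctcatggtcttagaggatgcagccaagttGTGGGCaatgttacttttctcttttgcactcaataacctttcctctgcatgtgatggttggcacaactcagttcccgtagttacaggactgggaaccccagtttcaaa
The MYT1L example lies at chr3:105490528-105490685 in Kcnd3, a potassium channel subunit, with 2 copies.
Kcnd3 MYT1L: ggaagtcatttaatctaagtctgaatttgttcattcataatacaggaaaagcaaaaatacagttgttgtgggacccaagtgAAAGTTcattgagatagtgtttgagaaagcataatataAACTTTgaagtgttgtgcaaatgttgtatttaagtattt
The nuclear factor I half-site had its most copies in Erc2 (chr14:28243522-28243742) and Kcnd2, and the NEUROD-type E-box in Adcy2 and Gabrg3, with 2 copies in each.
The TA-rich examples lie at chr13:108974288-108974447 in Pde4d, a cAMP phosphodiesterase, and at chr5:81649340-81649490 in Adgrl3, a latrophilin adhesion receptor, with 30 and 25 overlapping copies of TATATA.
Pde4d TA-rich: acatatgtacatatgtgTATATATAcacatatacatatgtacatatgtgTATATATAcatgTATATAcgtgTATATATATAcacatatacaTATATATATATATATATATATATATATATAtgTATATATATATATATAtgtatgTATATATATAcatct
Adgrl3 TA-rich: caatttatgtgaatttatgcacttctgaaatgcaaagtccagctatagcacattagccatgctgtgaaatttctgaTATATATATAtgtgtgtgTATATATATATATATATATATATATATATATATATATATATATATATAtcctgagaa

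The adult WT only sites were short. Their median width was 156 bp, from 26 bp to 3684 bp, against 106 bp for the 52614 sites found only in the adult HET list (adult HET only sites) and 252 bp for the 5913 other adult WT sites, which overlapped another list. Width is part of how the members were chosen, since a wide site has more chance to overlap. The share of adult WT sites that were adult WT only was 93.8% in the narrowest of 10 width classes of equal size and 55.2% in the widest. At the edge of the rule, 10 members touched a site of another list end to end and 40 lay 1 to 10 bp from one, while 52 excluded sites overlapped another list by 10 bp at most. Of the members, 12.2% were within 1000 bp of a site of another list, and the median gap was 8048 bp. The median gap to the adult HET list was 12776.5 bp, against 27730 bp for P0 and 79360 bp for E18.5. Those lists held 56937, 40698 and 14477 sites, so the gaps were longer to the smaller lists. The part of list size in these gaps was not tested.

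The members lay mostly outside promoters. Introns held 43.5% of them and intergenic DNA 45.7%, against 38.2% and 51.4% of genome bases. Promoters held 4.24% of them (exact 95% interval 4.0 to 4.49%), counting 1 kb before and 100 bp after each transcription start. In adult HET only sites the promoter share was 2.92%, and promoters make up 3.59% of the genome. The other adult WT sites had 31.2% at promoters, a contrast the rule itself favours because the other lists also lie at promoters. The median distance to the nearest transcription start was 44.3 kb for adult WT only sites, against 58.8 kb for adult HET only and 13.3 kb for other adult WT sites.

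Repeat DNA was less frequent in the members than in the sites private to HET. Over 50% of the bases were repeat-masked in 18.4% of adult WT only sites, against 29.5% of adult HET only sites (odds ratio 0.538, 95% interval 0.519 to 0.558, Fisher's exact test, two-sided, p = 4.76e-258). Among sites whose middle 32 bases occur once in the assembly, a subset chosen after seeing the data, the shares were 11.4% and 17.1% (odds ratio 0.624). The other adult WT sites had 4.01% and the sites found only at P0 had 6.41%. CpG dinucleotides were lacking in 39.3% of adult WT only sites and in 58.0% of the narrower adult HET only sites. Median GC content was 39.7% within 75 bp of the midpoint of adult WT only sites, against 37.1% for adult HET only and 45% for other adult WT sites.

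To ask whether sites private to adult WT and sites private to adult HET carry the same factor words, 21 fixed words were searched within 75 bp of each midpoint on both strands. The AP-1, EGR and MEF2 words were more frequent in the adult WT only sites, while the CRE word TGACGT, bound by the activity-responsive factor CREB, was not called. The AP-1 word was in 8.19% of adult WT only sites (exact 95% interval 7.86 to 8.53%), against 4.82% of adult HET only sites, with an odds ratio of 1.71 (95% interval 1.61 to 1.81, Cochran-Mantel-Haenszel chi-square test within classes of GC content and promoter, adjusted p = 3.24e-66). The EGR word was in 7.14% against 3.70% (odds ratio 1.56, chi-square adjusted p = 1.35e-37). The CRE word was in 1.05% against 0.889%, with an odds ratio of 1.05 (chi-square adjusted p = 0.605). The MEF2 word was rarer, in 0.915% against 0.591%, with an odds ratio of 1.84 (chi-square adjusted p = 1.32e-11). Width was not a class in these tests, and the adult HET only sites are narrower. Among sites wider than 100 bp in both sets the odds ratios were 1.73 for AP-1, 1.60 for EGR and 2.09 for MEF2, and the part of the remaining width difference was not tested. In windows of the same length tiled over the genome, the AP-1 word was found in 4.48%, the EGR word in 5.09% and the MEF2 word in 0.437%. Genome windows with the GC content of the adult WT only sites had the words in 4.50%, 4.49% and 0.507%, all under the shares of these sites. At the GC content of the adult HET only sites the genome shares were 4.56%, 3.47% and 0.617%, close to the shares of those sites.

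Several other words differed by smaller ratios, in both directions. The NEUROD-type E-box was in 14.1% of adult WT only sites and 10.5% of adult HET only sites (odds ratio 1.28), and the nuclear factor I half-site in 9.29% and 7.52% (odds ratio 1.21). The POU octamer ATGCAAAT had an odds ratio of 1.43 and the GC box GGGCGG of SP and KLF factors 1.53, although the box was in only 1.88% of the members. The nuclear receptor half-site AGGTCA ran the other way, in 5.20% of adult WT only and 7.44% of adult HET only sites (odds ratio 0.641, chi-square adjusted p = 1.86e-41). A ratio this low was not particular to the half-site, since the hexamers AGGGTC (0.621) and GGACCC (0.634) were as low. The SOX word ACAAAG (0.899) and the homeodomain word TAATTA (0.932) were also less frequent in adult WT only sites. In all, 13 of the 21 words were more frequent and 3 less frequent in adult WT only sites after Benjamini-Hochberg adjustment. Many sequences differed between these 2 sets of sites, since the same test called 22.3% of all hexamers more frequent and 27.4% less frequent, so the count of words is read against that share. The hexamer with the highest odds ratio of all was CCCACG, the reverse complement of the EGR letters CGTGGG, in 2.98% of adult WT only and 1.17% of adult HET only sites (odds ratio 1.94). The second was CGCCCA, with an odds ratio of 1.73, which on the other strand reads TGGGCG and also belongs to the EGR site. Both hold a CpG dinucleotide, as do all hexamers ranked 3 to 7, and CpG content was not a class in the test. Without a CpG, the hexamers GTGGGA (1.557) and CCCACA (1.555) had ratios like that of the EGR word GTGGGC (1.56). The ranking thus did not single out the EGR word.

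**Figure D1:**
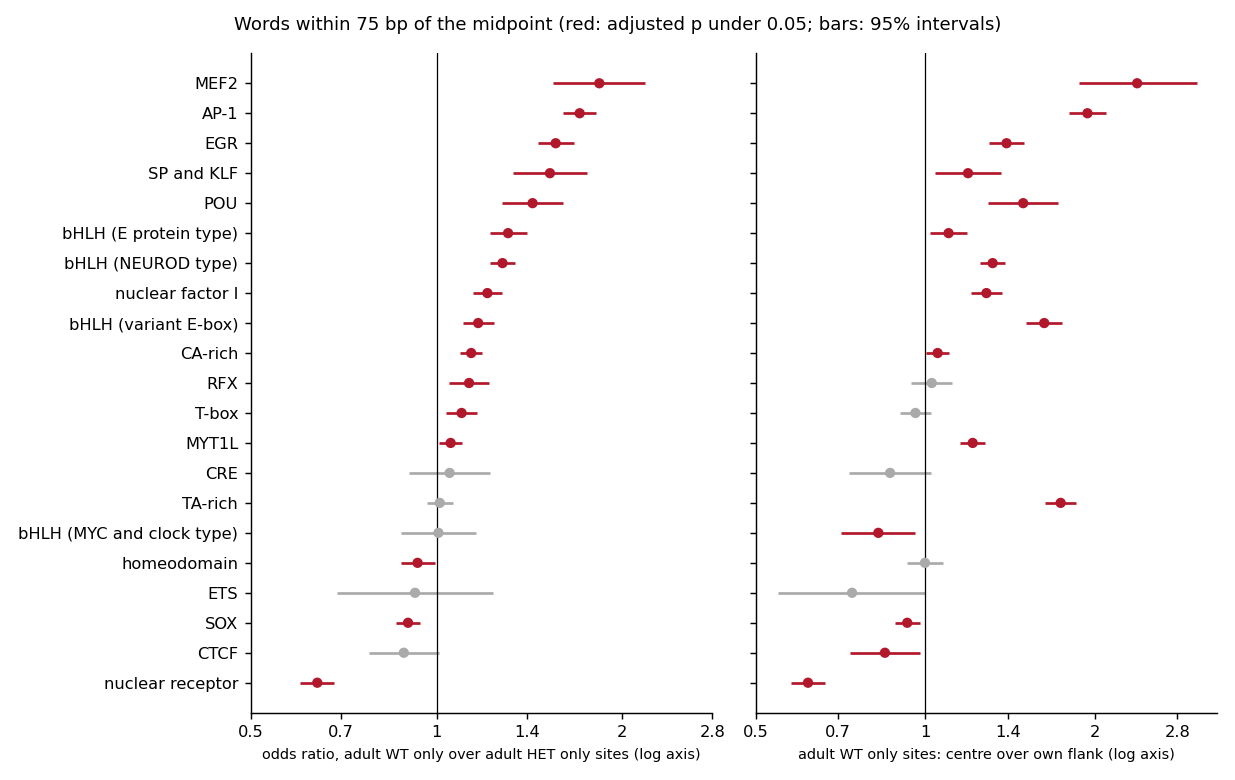
Ratio for each of the 21 words with its 95% interval on log axes. Left, odds ratio of adult WT only over adult HET only sites within GC and promoter classes; right, number of adult WT only sites with the word at the midpoint alone over the number with it in the flank alone. MEF2, AP-1 and EGR words lead the left panel, at 1.84, 1.71 and 1.56, and the nuclear receptor word is lowest in both panels.

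The word of MYT1L itself had nearly equal raw shares in the adult sets. AAAGTT was in 13.8% of adult WT only sites, 14.6% of adult HET only sites and 13.8% of other adult WT sites, and in 12.1% of genome windows. Genome windows with the GC content of each set had it in 12.9%, 14.4% and 9.62%, so the other adult WT sites stood furthest above their GC-matched share. Within GC and promoter classes its odds ratio was 1.05 against adult HET only sites (95% interval 1.01 to 1.10, chi-square adjusted p = 0.0255) and 0.762 against other adult WT sites (95% interval 0.697 to 0.834, chi-square adjusted p = 9.69e-09). The first value was below 1, at 0.932, when no classes were used, and was not called with windows of 50 or 150 bp on each side. Among all hexamers it ranked 684 by odds ratio against adult HET only sites.

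Each site was also compared with its own surroundings, a window of the same length centred 1000 bp downstream. This comparison stays within the same chromosome region and does not use another list. The AP-1 word was at the midpoint of 8.19% of members and in the flank of 4.41%, and members with it at the midpoint alone outnumbered those with it in the flank alone 1.94-fold (exact McNemar test, adjusted p = 1.25e-70). The ratio was 2.38 for MEF2, 1.63 for the E-box variant CATATG, 1.49 for POU, 1.39 for EGR, 1.32 for the NEUROD-type E-box and 1.28 for nuclear factor I. For AAAGTT it was 1.21, with the word in 13.8% of midpoint windows and 11.7% of flanks (exact McNemar adjusted p = 6.38e-13). The nuclear receptor half-site was scarcer at the midpoint, in 5.20% against 8.19% (ratio 0.619). In this comparison 12 words were more frequent at the midpoint and 4 less frequent, beside 18.8% and 27.3% of all hexamers. Every ratio named in this paragraph kept its direction and stayed called with a flank 1000 bp upstream, a flank 500 bp downstream and in members wider than 100 bp.

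The density of words along the sites shows the same contrast by position, without a test. In bins of 50 bp, AP-1 words had a density of 0.634 per kb at the midpoint of adult WT only sites and 0.306 per kb at 1000 bp downstream. In adult HET only sites these densities were 0.365 and 0.290 per kb, and in other adult WT sites 0.653 and 0.308 per kb. AP-1 words were thus densest at the centre in both sets of adult WT sites, with a smaller step in the adult HET only sites. EGR words had 0.539 per kb at the midpoint and 0.367 per kb at 1000 bp in adult WT only sites, while adult HET only sites had 0.250 and 0.328 per kb. AAAGTT was denser at the midpoint than at 1000 bp in all 3 sets, with 1.04 per kb in adult WT only sites, 1.10 per kb in adult HET only sites and 1.14 per kb in other adult WT sites.

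**Figure D2:**
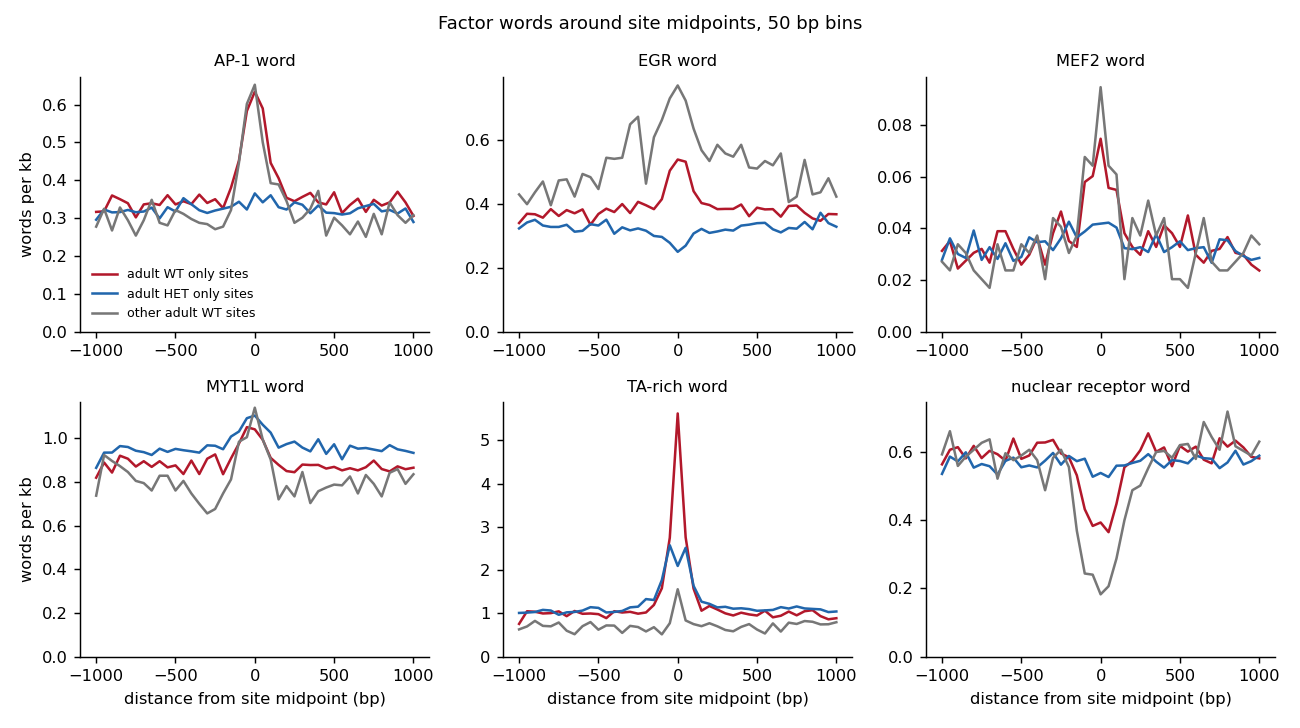
Density of 6 words in words per kb (50 bp bins, both strands) against distance from the site midpoint in bp, for adult WT only, adult HET only and other adult WT sites. At the midpoint AP-1 words reach 0.634 per kb in adult WT only and 0.365 per kb in adult HET only sites, and TA-rich words reach 5.62 per kb in adult WT only sites.

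Against the other adult WT sites, the AP-1 word showed no difference that passed the test. It was in 8.19% of adult WT only sites and 7.98% of other adult WT sites (odds ratio 1.01, 95% interval 0.901 to 1.12, classes of GC, promoter and width). The EGR word had an odds ratio of 1.16 in this comparison (95% interval 1.03 to 1.3), a call that was lost with windows of 50 or 150 bp and outside promoters and that turned to 0.676 without classes. Nuclear factor I (0.734), the NEUROD-type E-box (0.799), the E-box variant (0.809), MEF2 (0.686), POU (0.584), the CRE word (0.578) and the GC box (0.440) were all less frequent in adult WT only sites. The MEF2 call was lost among sites with at most 50% repeat (0.770) and without classes (0.857), and the E-box variant turned to 1.05 without classes. The nuclear receptor half-site was more frequent than in other adult WT sites, with an odds ratio of 1.86. In total 4 words were more and 10 less frequent than in other adult WT sites, beside 14.2% and 23.9% of hexamers. Sites found only at P0 had the AP-1 word in 3.82%, the EGR word in 6.13% and MEF2 in 0.409%, given without a test because the lists also differ in run.

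Word shares followed the width of the members. The window searched, 75 bp on each side, was the same for all, so for the narrowest members it reached beyond the site. Members were split by width into 5 classes of equal size. In the narrowest class, 26 to 109 bp, the AP-1 word was within 75 bp of the midpoint in 5.87% of sites, and in the widest class, 243 to 3684 bp, in 12.2%, while the flank stayed between 4.23% and 4.56% in all 5 classes. For the EGR word the shares were 4.48% in the narrowest and 11.2% in the widest class, with flanks of 5.03% and 5.20%, so that the EGR share of the narrowest members was not above that of their surroundings. The MEF2 word was in 0.610% of the narrowest and 1.37% of the widest class. AAAGTT ran from 12.9% to 16.4%, with the lowest share, 12.5%, in the middle class.

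The TA-rich word went the opposite way. TATATA was in 15.6% of the narrowest and 7.68% of the widest class, against 7.36% and 5.68% in their flanks. Over all members it was in 11.1%, with a ratio of midpoint to flank of 1.74 (exact McNemar adjusted p = 9.15e-69), and it was in 13.7% of adult HET only and 5.26% of other adult WT sites. Its midpoint density was 5.62 per kb in adult WT only sites, against 2.10 per kb in adult HET only and 1.56 per kb in other adult WT sites. Long TA runs such as those printed for Pde4d and Adgrl3 give many overlapping copies per site. Against adult HET only sites its odds ratio was 1.01 (adjusted chi-square p = 0.666), a ratio that was 0.904 among sites with at most 50% repeat and 1.11 with 50 bp on each side.

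**Figure D3:**
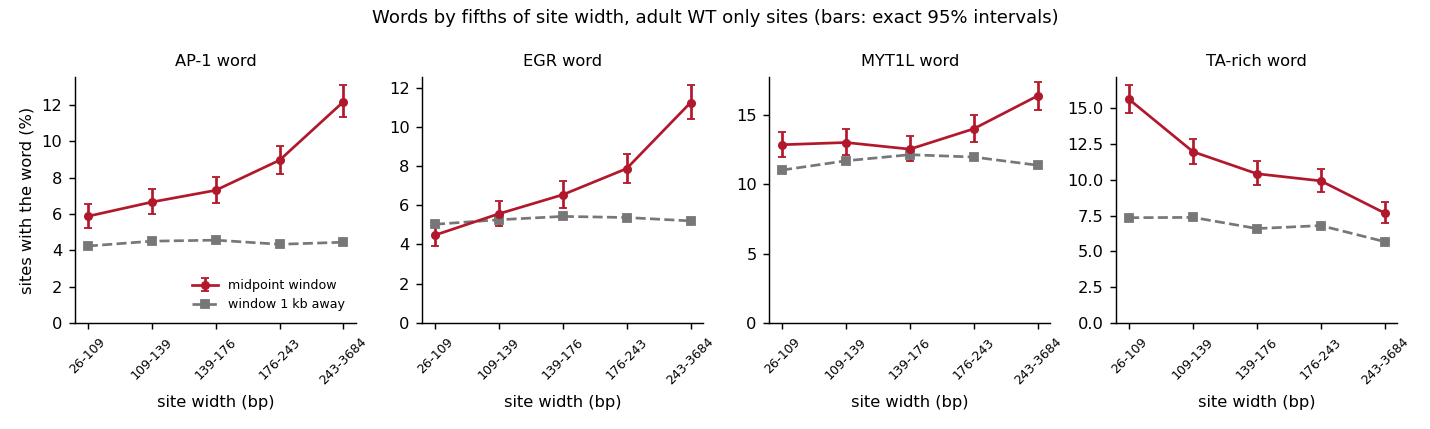
Share of adult WT only sites with a word (%) in 5 classes of site width in bp, at the midpoint (red, exact 95% intervals) and in a window 1 kb away (grey). AP-1 reaches 12.2% and EGR 11.2% in the widest class, while the TA-rich word falls to 7.68% there, against 15.6% in the narrowest.

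Few members with the AP-1 word held several copies. Of the 2149 members with the word, 141 held it in 2 or more places within the window and 14 in 3 or more, as in Camk1d. AP-1 and EGR words occurred together in 160 members, and none of these counts was set against an expected number. By location, the AP-1 word was in 8.93% of intronic, 7.63% of intergenic and 7.46% of promoter members, and the EGR word in 7.62%, 6.12% and 11.3% of them.

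Chromosomes carried between 8.70 adult WT only sites per Mb on chromosome 7 and 12.3 on chromosome 1 among the autosomes, with 6.64 per Mb on the X. Most members stood alone, since the median number of members in the 50 kb from a member on was 1, the member itself. A few places were packed. The densest 50 kb held 43 members and lay on chromosome 1 over Mroh2a and Hjurp. The next windows lay at Speer4e on chromosome 5 with 26, at Zfp978 on chromosome 4 with 25, on chromosome 8 with 25 and at Sprr2a2 on chromosome 3 with 24. In these 4 windows, between 68.0% and 100% of the members had middle 32 bases that occur more than once in the assembly, so reads there may belong to another copy. Over all members the share was 12.4%, against 19.0% for adult HET only and 4.58% for other adult WT sites. The sources used here do not say how reads with several matches were handled.

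The chromosome 1 window was the only one of the 10 densest in which no member had repeated middle bases, and it belonged to a longer block. It ran from the 3' end of the Ugt1a genes, enzymes that couple glucuronic acid to bilirubin and drugs, over Mroh2a and Hjurp, a chaperone of the centromeric histone CENP-A, into Trpm8, the cold and menthol channel of sensory neurons (chr1:88211696-88310166). In these 98.5 kb lay 71 adult WT only sites, and the whole adult WT list had 78 sites there, against 14 in adult HET, 4 in P0 and 1 in E18.5. Adult WT only sites were at 72.1 per 100 kb here and at 0.991 per 100 kb over the whole genome. The block held 0.243% of the adult WT list, 0.0246% of adult HET, 0.00983% of P0 and 0.00691% of E18.5. The adult HET list was also dense here, at 14.2 per 100 kb. Over the genome, adult HET only sites, 52614 of the 56937 sites of that list, were at 1.99 per 100 kb. The block ended sharply. The nearest member on the left lay 318.2 kb away and on the right 416 kb away, and no adult WT site of any kind lay in the 100 kb on either side. Mroh2a had 33 members, Trpm8 21 and Hjurp 9, while the adult HET list had 6, 2 and 5 sites in the same genes. Members of the block had a median width of 230 bp, and 41 of the 71 lay in introns. The merged list does not show whether all 3 adult WT libraries contributed, so a part of 1 library in this block was not tested.

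**Figure D4:**
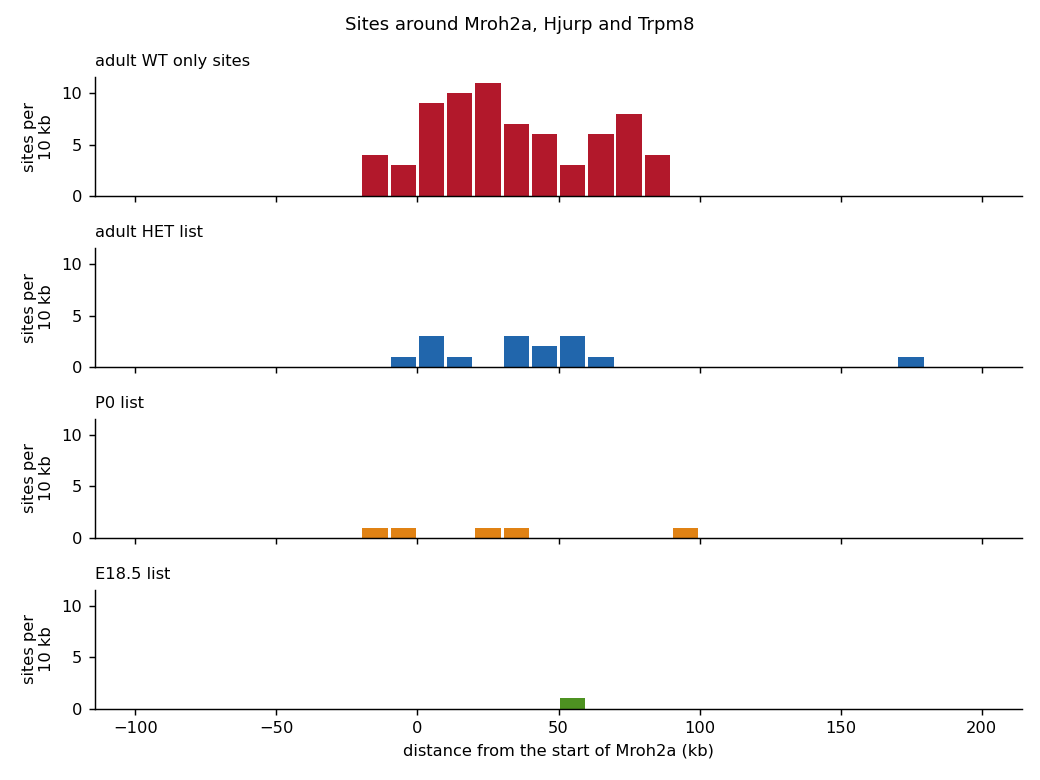
Number of sites per 10 kb (y axis) against distance from the start of Mroh2a in kb, for adult WT only sites and the adult HET, P0 and E18.5 lists. The 71 adult WT only sites fill 98.5 kb with sharp edges; the 14 adult HET sites scatter over the same stretch.

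Gene bodies held 1.11 adult WT only sites per 100 kb, against 1.98 adult HET only sites per 100 kb. The highest number was 67 in C130026I21Rik, of which 58 had repeated middle bases, and the same held for 7 of 9 members in Sp110, all 12 in Sp140 and all 13 in Sprr2a2. These genes and the zinc finger genes Zfp978, Zfp980 and Zfp600 belong to families with near-identical copies, and their counts are uncertain. Apart from them and Mroh2a, the genes with most members were long. Nrxn3, a presynaptic neurexin, held 36 in 1612 kb, Dlg2, a postsynaptic scaffold, 34 in 1973 kb, and Ptprd, a synapse-organising phosphatase, 33 in 2271 kb. Csmd1, Gm20388 and Gm37240 held 31 each. Magi2, another scaffold, held 29, Opcml, an adhesion molecule, 28, Dlgap1, a postsynaptic scaffold, 27, and Erc2, a scaffold of the presynaptic active zone, 26.

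In several of these genes the adult HET only sites were more numerous, with 46 in Nrxn3, 59 in Dlg2, 60 in Ptprd and 48 in Magi2. Members went with gene length. Genes with 8 or more members had a median length of 550.7 kb, against 17.4 kb for all 21938 protein-coding genes, and their densities were moderate. Nrxn3 had 2.23 members per 100 kb and Dlg2 1.72, against 3.04 in Erc2 and 3.17 in Dlgap1. In Erc2 the adult WT list had 27 sites and the adult HET list 18, whereas Dlg2 had 40 adult WT and 63 adult HET sites. In Grin2a, an NMDA receptor subunit, 17 members lay in 427.7 kb, where the adult WT list had 20 sites and the adult HET list 8. Counting only members whose middle bases occur once, the densest genes after Mroh2a and Trpm8 were Celf1, an RNA-binding protein, with 10.1 per 100 kb, Mettl24 with 7.04 Pla2g4a, a phospholipase, with 6.83 and Msra, a methionine sulfoxide reductase, with 6.30. Lower in this ranking, Mef2c, a neuronal MEF2 factor, had 5.52 and Gabrb2, a GABA receptor subunit, 5.26. Celf1 held 8 such members, against 4 adult HET and 1 P0 site, and Gabrb2 11 against 10 and 3. Msra held 21, against 17 adult HET and 25 P0 sites, and Mef2c 9 against 11 and 23. This last ranking was chosen after the repeated families had been seen.

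Protein-coding genes were called targets where any of their starts lay at most 5 kb from a site. Adult WT only sites marked 3312 of 21938 genes (15.1%) and adult HET only sites 5514 (25.1%). Most of these genes also had a site of another list in reach, and 812 (3.7%) had an adult WT only site and none of the other 3 lists.

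The share of targets differed between synaptic gene lists, and no list was tested. Of 21 postsynaptic scaffold and signalling genes 13 were targets (61.9%), of 25 calcium-dependent and plasticity kinases 15 (60%), of 27 synaptic adhesion genes 13 (48.1%) and of 7 NMDA receptor genes 3, whose exact 95% interval of 9.90 to 81.6% holds the background. Of 18 GABA receptor genes 2 were targets (11.1%), and the exact 95% interval of 1.38 to 34.7% also holds the background of 15.1%. The first 3 of these lists were also above the adult HET only background of 25.1%, at 61.9%, 64.0% and 59.3% for adult HET only sites. Those sites marked 2 of 7 NMDA receptor genes (28.6%), near that background. The genes of the first 4 lists are long, with medians of 211.7 kb, 296.7 kb, 791.3 kb and 46.5 kb. The part of length in these counts was not tested. Circadian clock genes had 11 of 21 targets of adult WT only sites (52.4%) and 8 of adult HET only sites. In Per3, a period gene, 3 members within 5 kb of a start covered 844 bp, where adult HET had 1 site and P0 and E18.5 none. Nr1d1, the repressor REV-ERB alpha, had 1 member of 429 bp in its intron at chr11:98773808-98774236. A P0 site lay 663 bp and an E18.5 site 1012 bp from this member.

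Among disease lists, 15 of 40 autism-associated genes were targets of adult WT only sites (37.5%, beside 15.1% of all genes). Adult HET only sites marked 22 of them (55%, beside 25.1%), so both sets were above their backgrounds. These genes are also long, with a median of 107 kb against 17.4 kb for all genes, and the part of length was not tested. Several lists lay near or under the background. Targets of adult WT only sites were 2 of 18 GABA receptor genes (11.1%), while adult HET only sites marked 10. Activity-induced effectors had 4 of 24 (16.7%) for adult WT only and 12 for adult HET only sites. Only 1 of 20 progenitor genes, Gli3, was a target, and 4 of 40 Wnt and 4 of 26 Notch pathway genes were. Olfactory receptor genes had 96 of 1135 (8.46%) and vomeronasal receptor genes 24 of 329 (7.29%), against 27.3% and 33.1% for adult HET only sites. Among clustered protocadherins 2 of 57 had an adult WT only site in reach and 16 had an adult HET only site. Of microglial genes 3 of 20 were targets, P2ry12, Trem2 and Gpr34, and all 3 lacked sites of the other lists within 5 kb of a start (15%, beside 3.7% of all genes), although P2ry12 had 2 adult HET sites elsewhere in its span. Heart and skeletal muscle genes had 7 of 30, and 5 of these had no site of another list in reach.

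**Figure D5:**
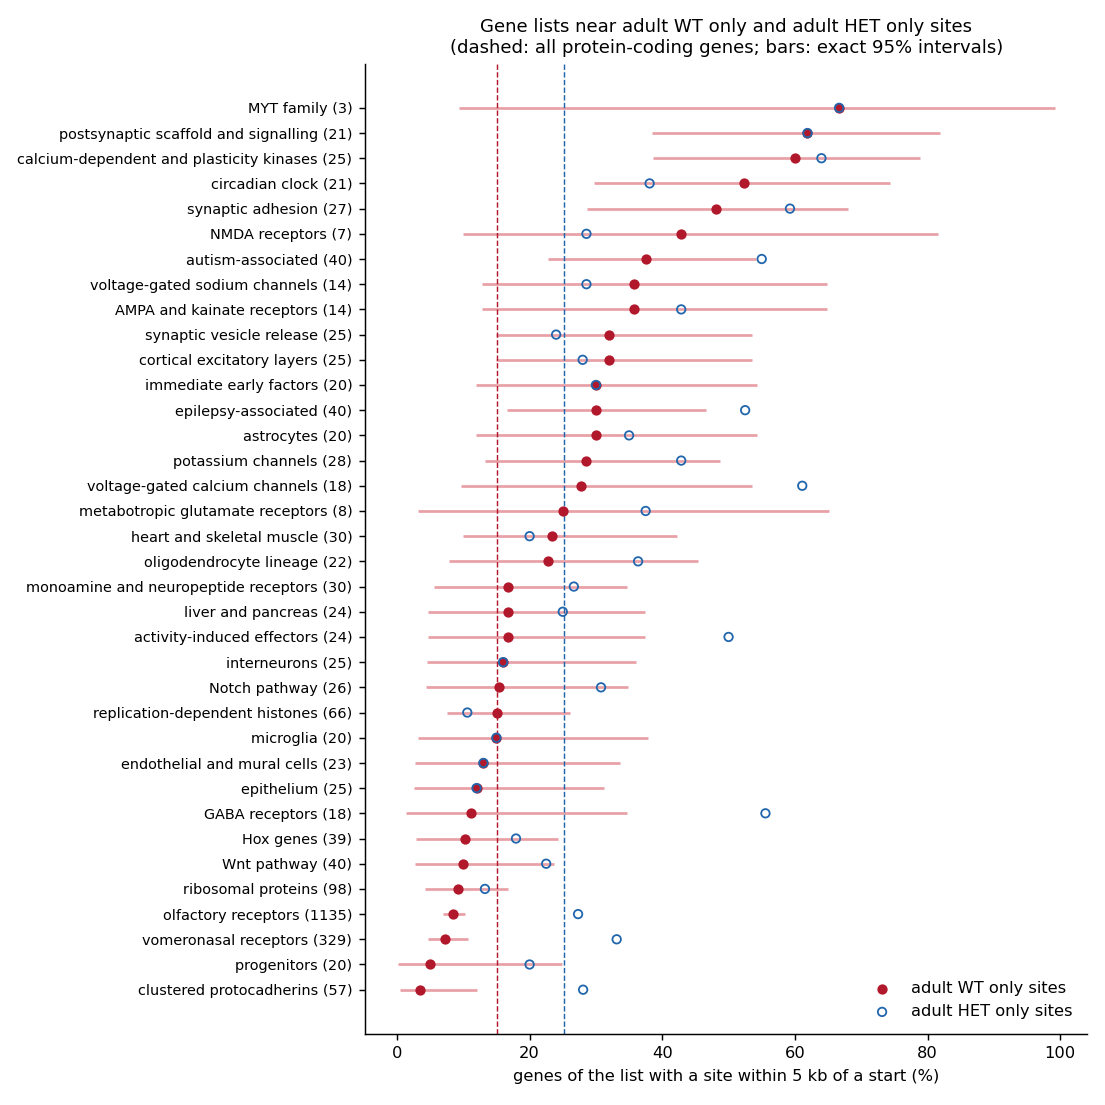
Share of genes (%) of each fixed list with an adult WT only site (red, exact 95% interval) or an adult HET only site (open blue) within 5 kb of a start. Dashed lines mark all protein-coding genes, 15.1% and 25.1%; the number of genes stands in brackets.

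The immediate early factors, which include FOS, JUN and EGR genes, had 6 of 20 targets (30.0%) for both sets of sites. The background of all protein-coding genes was 15.1% for adult WT only and 25.1% for adult HET only sites. The exact interval of the adult WT only share, 11.9 to 54.3%, holds its background, and the list was not tested. All 6 (Fos, Jun, Junb, Egr1, Egr3 and Npas4) also had P0 sites in reach. The member near Fos covered chr12:85478373-85478582 and lay 3567 bp from the start, with an adult HET site 1667 bp away. Npas4, a neuronal activity factor, had 1 member of 407 bp at chr19:4993986-4994392, 800 bp from the nearest adult HET site. The activity-induced gene Homer1 had 2 members of 765 bp and 227 bp, with 1 adult HET, 6 P0 and 2 E18.5 sites in reach. Pcsk1, a prohormone convertase, had 3 members of 703 bp, 343 bp and 114 bp with 1 adult HET site and no P0 or E18.5 site in reach. At Erc2 4 members covered 1700 bp, where P0 had 2 sites within 5 kb of the starts, 1 of them 119 bp from a member, and adult HET and E18.5 had none.

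Of the genes reached by adult WT only sites alone, Sfi1 had the most bases, 6618 in 3 members. One of them was the widest of all members, 3684 bp at chr11:3174972-3178655, and its middle bases occur 88 times in the assembly. Brinp1, a protein of neurons, had 4 members over 927 bp, all with middle bases that occur once. Vipr1, a receptor of vasoactive intestinal peptide, had 3 members over 926 bp, the widest at chr9:121663603-121664019, and Pde2a, a cyclic nucleotide phosphodiesterase, had 5 over 887 bp. At Vipr1 the nearest adult HET site was 87969 bp or more from each member. Sp1, the GC box factor, had 1 member of 841 bp.

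The MYT family was in reach at 2 of 3 genes. Myt1 had 1 member of 364 bp at chr2:181817202-181817565 in an intron, 64408 bp from the nearest adult HET site, and St18 had 2 members of 141 bp and 180 bp. Myt1l itself had no adult WT only site within 5 kb of a start but 4 in its body, where the adult WT, adult HET, P0 and E18.5 lists had 8, 14, 27 and 6 sites.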

How the data were processed

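CUT&RUN for MYT1L was done on 12 libraries, 3 per group, and for IgG on 12 libraries not analysed here. The deposited files, made by the authors with nf-core/cutandrun 1.0 against mm10 according to the submitters' processing notes, are 4 lists of site positions merged over the libraries of a group. They hold no counts or scores. For aligner and peak caller settings: not given in the sources used here. Members and gene lists were chosen with earlier results of these data known.

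Overlap of at least 1 bp was found with bedtools 2.31.1. Words were searched 75 bp on each side of the midpoint and compared with Cochran-Mantel-Haenszel chi-square tests within classes of GC content and promoter (also width, against other adult WT sites), and with exact McNemar tests against the flank. P-values were adjusted by Benjamini-Hochberg, and a call was an adjusted p under 0.05. Scripts used Python 3.11.15, numpy 2.4.6, pandas 2.3.3 and scipy 1.17.1, and were tested on simulated data. Annotation was GENCODE vM21, with 21938 protein-coding genes. Genes were named by 3 rankings (most members, most members per 100 kb in genes of at least 20 kb with 8 or more, most bases near a start with no other list), 12 each, and the first 4 targets of each list. Genes discussed for other reasons were chosen after their values were seen. The count of a site's middle 32 bases in the assembly was added after seeing the data. A sequence that the rule would also have shown is not reported here.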

Additional observations from a re-analysis of the deposited data

How the results depend on the processing

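No paired analysis was possible because each list is merged over the libraries of its group. Of single-word ratios, 80 of 88 against adult HET only sites, 76 of 88 against other adult WT sites and 44 of 44 against the flank kept their direction and side of the threshold. The odds ratio of TGANTCA against other adult WT sites was 0.984 with 50 bp windows, 0.983 with 150 bp and 0.961 outside promoters. That of TATATA against adult HET only sites was 0.904 at most 50% repeat, 0.791 without classes, 0.973 in sites wider than 100 bp and 0.964 where middle bases occur once, an alternative chosen after seeing the data. Without classes, AAAGTT against adult HET only sites was 0.932, and against other adult WT sites GTGGGC was 0.676 and CATATG 1.05. Less frequent words against adult HET only sites numbered 5 at most 50% repeat and 5 without classes, and against the flank 2 in sites wider than 100 bp. The promoter share was 2.79% with protein-coding promoters alone, 8.25% with promoters from 2 kb upstream to 500 bp downstream and 3.75% in members over 500 bp from other lists. Target genes numbered 1114 within 1 kb, 5095 within 10 kb and 1504 for members wider than the list median, whose density over gene bodies was 0.497 per 100 kb. The cause of these changes was not tested. Without scores or replicates, depth limits what the absence of a site from a list shows.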
